A study of Bos taurus with 12 samples.

Results

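Dry cows with a high and with a low milk protein percentage were compared by their mammary miRNAs. The libraries were chosen by the group names of the deposited table, HD (high protein, dry) and LD (low protein, dry), which gave 6 of the 12 small RNA libraries of the series, 3 in each group. All 6 cows were multiparous Chinese Holsteins sampled by mammary biopsy, 1 library per cow, and the other 6 libraries (HP and LP) came from other cows in lactation. The HD cows were biopsied 35, 29 and 21 days before calving (replicates 1 to 3) and the LD cows 39, 23 and 20 days before calving. Those days, from the study's description of the cows, entered each fit as a covariate, so a log2 fold change below is LD over HD at equal distance from calving.

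miRNAs are short RNAs that guide the silencing complex to partly complementary messenger RNAs and lower their stability or translation. Many are transcribed in clusters or from introns of host genes, and some are made almost entirely by 1 cell lineage, so that their level in a tissue also reflects its cell composition. In the dry period the secretory epithelium of the udder first regresses and is then rebuilt before calving, while immune cells enter and leave the tissue.

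Expression is given in TPM, the authors' name for reads scaled to a common library total without a correction for length, divided by a size factor per library (normalized TPM). The 6 libraries held between 11047701 and 23577942 counts, as inferred from the value of a single read. A read was counted at each precursor, so these totals can exceed the number of reads. A level of 3 reads corresponded to 0.127 TPM in the deepest and 0.272 TPM in the shallowest library. This floor covers counting error only. The table holds 388 mature miRNAs. The 10 most abundant held 63.2% of the TPM, and 158 had a mean under 10 TPM. On the log2 scale the libraries did not gather by milk protein. The nearest library came from the other group for 5 of the 6, and the mean root mean square difference was 0.840 within groups and 0.804 between them. HD replicate 1 and LD replicate 1, the furthest from calving, lay at one end of the first principal component (48.7% of the variance) with scores of -8.36 and -9.73. Their size factors of 1.36 and 1.49 were the highest, and those of LD replicates 2 and 3 (0.717 and 0.744) the lowest. HD replicate 1 and LD replicate 1 were also the shallowest libraries, with 11047701 and 14327050 counts against at least 20895761 in the others.

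miRNAs were called differentially expressed (DE) at an unadjusted p under 0.05 together with a log2 fold change beyond 0.8 in either direction. Between HD and LD, 12 of 388 miRNAs (3.09%) were DE. Higher in LD were 7 (1.8%), namely miR-33b, miR-202, miR-126-5p, miR-142-3p, miR-21-3p, miR-10167-3p and miR-362-3p, and lower were 5 (1.29%), miR-211, miR-542-5p, miR-27a-5p, miR-187 and let-7e. By p-value alone, 14 were higher (3.61%) and 17 lower (4.38%). Whatever the p-value, 208 of the 388 had a log2 fold change above 0 and 180 below 0. None passed Benjamini-Hochberg adjustment in limma (0 miRNAs, against 31 at an unadjusted p under 0.05; smallest adjusted p = 0.566, and at most 0.589 for the 12 DE), so each value below is a difference between these libraries that the adjustment does not carry. The ranges of HD and LD were apart for 40 miRNAs (10.3%), of which 9 were DE. With 3 libraries against 3, ranges that are apart correspond to p = 0.1 in an exact permutation test. The DE calls rest on the same values, so these 9 are no separate support.

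Adding the days before calving reduced the median standard error from 0.34 to 0.27 on the log2 scale and lowered it for 361 of the miRNAs. Without the covariate 13 miRNAs were DE and 11 of them were shared. miR-202 was DE with the days only, whereas miR-142-5p and miR-33a were DE without them and stayed just under the fold limit with them. Without size factors, the median over all miRNAs went from 0.03 to -0.13 on the log2 scale and the split turned, with 17 DE miRNAs of which 3 were higher and 14 lower, and 8 shared with the 12. Directions below are therefore relative to the bulk of the miRNAs. They follow the column names of the deposited table, and most miRNAs that the authors list for HD against LD have the opposite sign in that list.

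**Figure D1:**
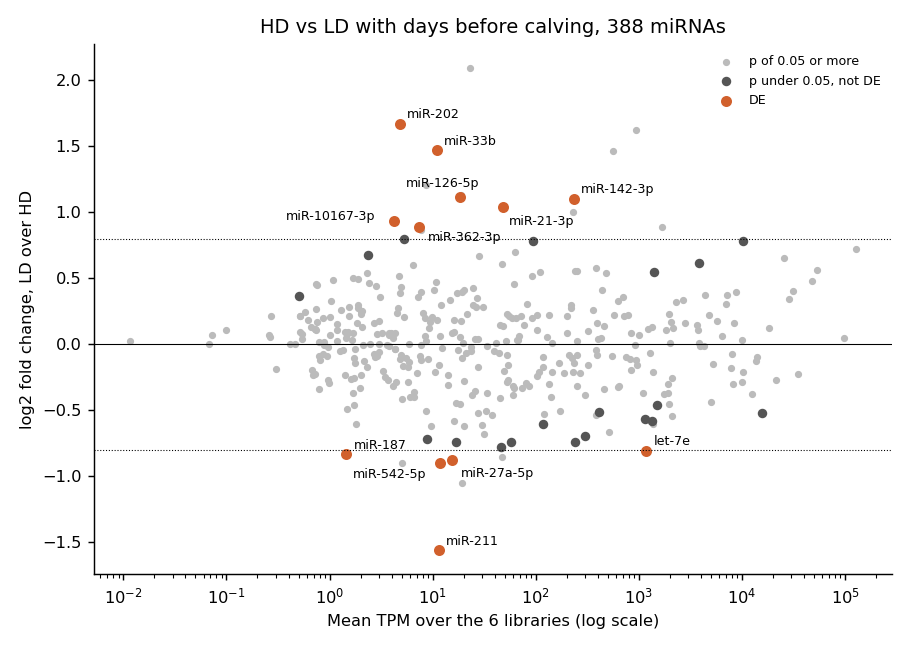
Log2 fold change of LD over HD (vertical axis, dotted lines at the fold limit of 0.8) against mean TPM over the 6 libraries (horizontal axis, log scale) for 388 miRNAs. The 12 DE miRNAs (orange) lie mostly between 1 and 100 TPM, and only let-7e and miR-142-3p had a higher mean.

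**Figure D2:**
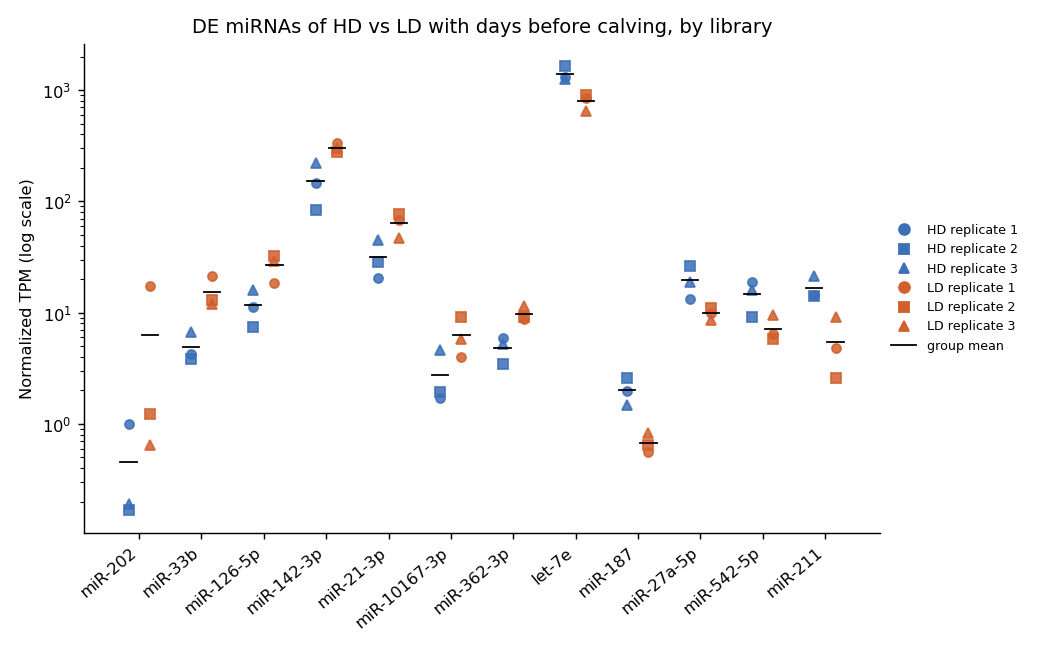
Normalized TPM (log scale) of the 12 DE miRNAs in each HD (blue) and LD (orange) library, with symbols for replicates and black lines for group means. The groups are apart for 9 of the 12, and the LD mean of miR-202 rests on LD replicate 1.

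The smallest p-value belonged to miR-33b, which lies in the gene SREBF1, and its relative miR-33a lies in SREBF2. SREBF1 and SREBF2 encode the transcription factors that control fatty acid and cholesterol synthesis, and miR-33 is known to repress cholesterol export. miR-33b had 4.25, 3.83 and 6.67 normalized TPM in the HD libraries and 21.3, 12.9 and 12.0 in the LD libraries. All LD libraries were above all HD libraries, and the one furthest from calving was the highest. The log2 fold change was 1.47 (SE 0.34, 95% interval 0.67 to 2.27, limma adjusted p = 0.566). It stayed DE when any single library was left out, with a log2 fold change from 0.97, without LD replicate 1, to 1.85.

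miR-33a had 2.86, 3.20 and 4.26 normalized TPM in HD and 7.32, 5.90 and 6.88 in LD. The groups were again apart, and the LD libraries lay close to each other. Its log2 fold change was 0.80 (SE 0.26), just under the limit, and its p-value stayed under 0.05 in 3 of the 6 fits without a library. miR-33a and miR-33b differ by few bases, and with 1 mismatch allowed in mapping some reads may have been counted for the other.

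miR-211, which lies in the gene TRPM1 and is best known from pigment cells, showed the largest decrease among the DE miRNAs. It had 14.4, 14.1 and 21.2 normalized TPM in HD and 4.83, 2.60 and 9.07 in LD. The highest LD library stayed below the lowest HD library. The log2 fold change was -1.56 (SE 0.42), and it was DE in every fit that left out a library, between -1.96 and -1.13. Its family member miR-204 had a mean of 107 TPM and a log2 fold change of -0.21 (SE 0.37).

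miR-187 and miR-202 were DE at low levels. miR-187 had 2.00, 2.57 and 1.48 normalized TPM in HD and 0.565, 0.642 and 0.833 in LD, so the groups were apart at a low level. Its log2 fold change was -0.83 (SE 0.22) and was -0.62 without LD replicate 1. It was not DE there or without HD replicate 2. miR-202, known from the gonads, was at 1.36, 0.18 and 0.17 TPM in HD and 25.6, 0.88 and 0.48 TPM in LD as deposited. HD replicates 2 and 3 were thus close to the 3-read values of 0.136 and 0.127 TPM, and LD replicate 1 stood far above every other library. The log2 fold change was 1.67 (SE 0.41). Without the covariate it did not reach p under 0.05 (log2 fold change 1.53), and without LD replicate 1 the log2 fold change was 0.79. Its level also changed with the days, by 1.42 log2 units per 10 days further from calving.

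The let-7 miRNAs promote differentiation and repress growth genes in many tissues, and they form one of the most abundant families here, with 7.27 to 7.79% of the TPM in the HD libraries and 6.97, 4.48 and 4.83% in LD replicates 1 to 3. After size factors the sums overlapped, at 57231, 72008 and 82155 normalized TPM in HD and 46837, 62534 and 64905 in LD. Of 9 members, 3 were lower in LD at p under 0.05 (let-7e, let-7a-5p and let-7d), against 17 of all 388 (4.38%). Of these 3, 1 was DE, and no member was higher. The count was 0 without LD replicate 1, 1 without HD replicate 2 or HD replicate 3, and 2 or 3 without another library. It was 1 without the covariate or with days after dry-off, and 5 without size factors. let-7e had 1312, 1638 and 1269 normalized TPM in HD and 848, 904 and 653 in LD. Each LD library was below each HD library. The log2 fold change was -0.81 (SE 0.22), and it was DE in 3 of the 6 fits without a library, those without HD replicate 2 and LD replicates 1 and 3 falling out (log2 fold changes between -0.93 and -0.68 over all 6). let-7e is made from a cluster with miR-99b and miR-125a, whose log2 fold changes were 0.23 (SE 0.19) and -0.10 (SE 0.21), neither with p under 0.05.

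let-7d had 1106, 1557 and 1253 normalized TPM in HD and 843, 777 and 1027 in LD, and let-7a-5p had 13696, 19784 and 20808 in HD and 10330, 12949 and 15187 in LD. The groups were apart for let-7d and overlapped for let-7a-5p. Their log2 fold changes were -0.57 (SE 0.22) and -0.52 (SE 0.19). The family median was -0.28, against 0.03 for all miRNAs. let-7i, let-7g and miR-98 had log2 fold changes of 0.06, 0.01 and 0.23. let-7 members differ by few bases, so reads could be split between them.

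miR-142 is made by blood-forming cells, and both of its arms were higher in LD. miR-142-5p had 6219, 6565 and 9843 normalized TPM in HD and 11824, 13500 and 13453 in LD, and miR-142-3p had 145, 84.1 and 223 in HD and 336, 275 and 301 in LD. The groups were apart for both arms, and HD replicate 3, the HD cow nearest to calving, was the closest to LD. The log2 fold changes were 0.78 (SE 0.20) for miR-142-5p and 1.10 (SE 0.37) for miR-142-3p. Without LD replicate 1 the value of miR-142-3p was 0.72 and not DE, as it was not without HD replicate 1 or HD replicate 2. In bulk tissue, fewer cells of a type and less RNA per cell cannot be told apart.

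Of 7 leukocyte miRNAs, these 2 were higher at p under 0.05, against 14 of all 388 (3.61%). All 7 had a log2 fold change above 0, against 208 of all 388, with a median of 0.41 against 0.03 for all miRNAs. Without size factors 5 were above 0 and their median was 0.23, and without LD replicate 1 none passed p under 0.05. The other members did not reach p under 0.05. miR-146a, induced by inflammatory signalling, had 725, 545 and 2562 normalized TPM in HD and 963, 1744 and 4796 in LD. Those values overlapped and were highest in the cows nearest to calving in both groups (log2 fold change 0.89, SE 0.45). miR-155 had a log2 fold change of 0.41 (SE 0.25), miR-150, typical of mature lymphocytes, 0.09 (SE 0.23), and miR-223, typical of neutrophils and other myeloid cells, 0.04 (SE 0.55). The summed share of the 7 was 1.32, 0.986 and 1.59% of TPM in HD and 2.34, 1.36 and 1.86% in LD, which overlap.

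Red cell miRNAs marked a single library. miR-486 had 194, 276 and 633 normalized TPM in HD and 361, 4767 and 743 in LD, and miR-451 had 108, 105 and 230 in HD and 117, 3638 and 164 in LD. miR-144, from the same precursor transcript as miR-451, was also highest in LD replicate 2, with 144 normalized TPM there and between 1.35 and 10.9 elsewhere. The 3 members together took 0.613% of the TPM of LD replicate 2 and at most 0.077% of any other library. Their log2 fold changes, 1.62, 1.47 and 2.09, were among the largest of all miRNAs, with standard errors of 0.71, 1.11 and 1.09, and none reached p under 0.05. Without LD replicate 2 they were 0.77, 0.056 and 0.89, and without LD replicate 3, with LD replicate 2 kept, they were 2.50, 2.79 and 3.40 and all 3 were DE. How far the erythrocyte content of LD replicate 2 enters the other differences was not tested. The log2 fold change of miR-142-3p was 1.196 without that library.

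miR-126, which lies in EGFL7 and is made by endothelial cells, was DE through its minor arm. miR-126-5p had 11.2, 7.45 and 16.1 normalized TPM in HD and 18.4, 32.3 and 28.9 in LD, without overlap. Its log2 fold change was 1.11 (SE 0.32), and without LD replicate 1 it was 1.16 and not DE. The major arm miR-126-3p, at 6459, 5939 and 5716 normalized TPM in HD and 7201, 9135 and 6252 in LD, overlapped between groups and had a log2 fold change of 0.31 (SE 0.21).

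Of the remaining DE miRNAs, miR-21-3p had 20.3, 28.7 and 45.0 normalized TPM in HD and 68.4, 77.2 and 47.3 in LD. LD replicate 3 lay just above HD replicate 3, and the others were well apart. Its log2 fold change was 1.04 (SE 0.37), whereas miR-21-5p, the abundant arm of this growth- and stress-responsive miRNA, had 0.34 (SE 0.26). miR-21-3p was not DE without HD replicate 1, LD replicate 1 (0.57) or LD replicate 2.

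miR-362-3p comes from an intronic cluster of CLCN5 together with miR-188, miR-500, miR-502, miR-532 and miR-660. It had 5.92, 3.45 and 5.18 normalized TPM in HD and 8.73, 9.21 and 11.4 in LD. The groups were apart, with a log2 fold change of 0.89 (SE 0.29). The 7 other measured members of the cluster had log2 fold changes between 0.07 and 0.29, with no p under 0.05. It stayed DE in 2 of the 6 fits without a library.

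miR-27a-5p had 13.2, 26.2 and 19.0 normalized TPM in HD and 9.90, 11.0 and 8.68 in LD. The LD libraries were all below HD and close to each other. Its log2 fold change was -0.88 (SE 0.33), while the abundant arm miR-27a-3p, a regulator of fat cell differentiation, had 0.34 (SE 0.22). miR-542-5p had from 9.06 (HD replicate 2) to 18.7 (HD replicate 1) normalized TPM in HD and 6.38, 5.78 and 9.44 in LD. HD replicate 2 fell within the LD range, and the log2 fold change was -0.90 (SE 0.36). miR-10167-3p had 1.73, 1.94 and 4.60 normalized TPM in HD and 4.03, 9.08 and 5.79 in LD, which overlap (log2 fold change 0.93, SE 0.30). Each of these 3 was DE in 2 of the 6 fits without a library, and none of them without LD replicate 1.

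The DLK1-DIO3 region is an imprinted domain whose miRNAs are expressed from the maternal allele and are abundant in embryo, brain and stem cells. Of the 38 mature miRNAs measured from it, 35 had a log2 fold change below 0, against 180 of all 388. The number lower at p under 0.05 was 7 of 38, against 17 of all 388 (4.38%), and 0 were higher. None was DE, since no member past the p-value exceeded the fold limit. The median log2 fold change was -0.34, against 0.03 for all miRNAs, and 8 members did not overlap between groups, against 40 of all miRNAs (10.3%). Members of a polycistron share a transcript and are not independent of each other.

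miR-380-3p had 393, 334 and 305 normalized TPM in HD and 234, 221 and 175 in LD. All LD libraries were lower, and in both groups the value was lowest in the cow nearest to calving. Its log2 fold change was -0.69 (SE 0.21). miR-487b had 69.7, 67.0 and 62.3 normalized TPM in HD and 52.5, 34.4 and 31.6 in LD (log2 fold change -0.74, SE 0.24). miR-410 had 264, 339 and 221 normalized TPM in HD and 219, 128 and 140 in LD (log2 fold change -0.74, SE 0.24). LD replicate 1 was the LD library closest to HD for all 3.

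The count by sign stayed between 30 and 36 of 38 in the 6 fits without a library and was 36 without size factors. In the fit without size factors only 144 of all miRNAs were above 0. The count at p under 0.05 moved more, to 2 without HD replicate 2, 1 without HD replicate 3, 2 without LD replicate 2, 2 without LD replicate 3 and 8 without LD replicate 1, and it was 4 without the covariate. Members also became DE, 8 without LD replicate 1, 5 without HD replicate 1, 1 without LD replicate 2, 1 without LD replicate 3, 6 without size factors and 6 with days after dry-off as the covariate, and 1 member was higher at p under 0.05 without LD replicate 2. The summed share of the cluster was 1.10, 1.15 and 1.30% of TPM in HD and 1.42, 0.664 and 0.872% in LD, which overlap. LD replicate 1 was the highest of all 6 libraries before size factors. After size factors the sums also overlapped, at 8060, 10666 and 14705 normalized TPM in HD and 9518, 9268 and 11718 in LD. The most abundant member, miR-411a with a mean of 8047 TPM, had a log2 fold change of -0.07 (SE 0.24).

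**Figure D3:**
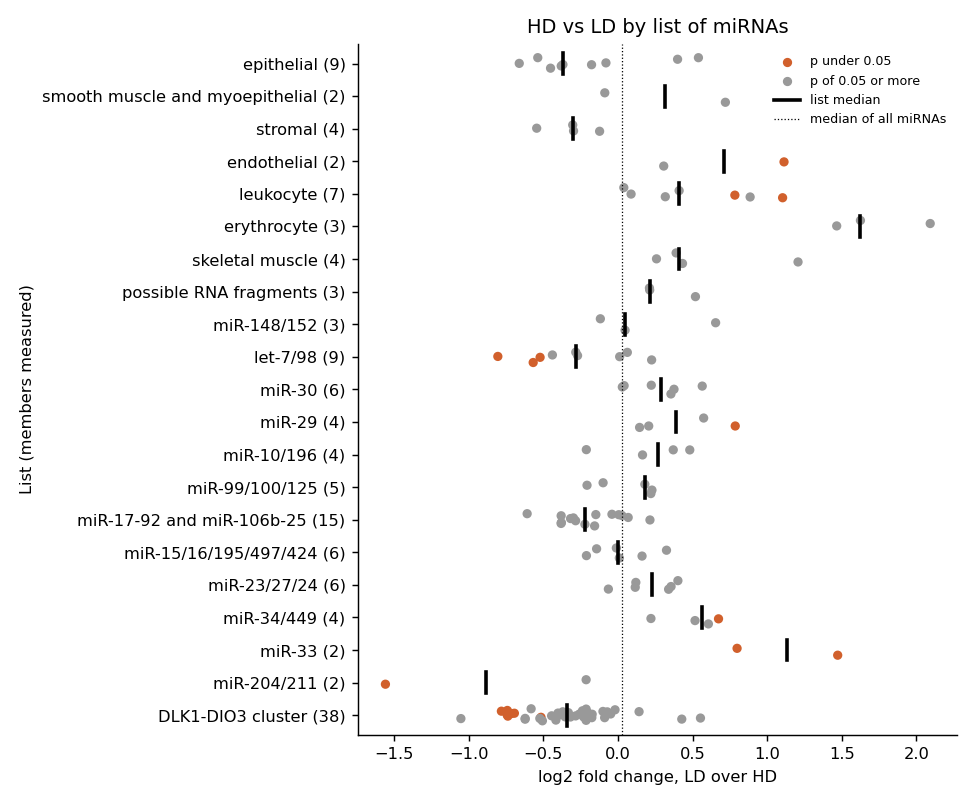
Log2 fold change of LD over HD for every measured member of 21 lists of miRNAs (points, orange at p under 0.05), with list medians (black bars) and the median of all miRNAs, 0.03 (dotted line). The DLK1-DIO3 members sit mostly left of the line, and the leukocyte, erythrocyte, miR-33 and miR-34 and miR-449 members right of it.

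Epithelial miRNAs were measured in every library, which does not tell how much of each biopsy was secretory tissue. Their summed share was 4.69, 3.17 and 3.56% of TPM in HD and 3.53, 1.91 and 3.88% in LD. Of 9 epithelial members 0 passed p under 0.05, 7 had a log2 fold change below 0, and the median was -0.37. miR-200b, which keeps cells epithelial by repressing ZEB factors, had 782, 460 and 530 normalized TPM in HD and 294, 363 and 457 in LD. The groups were just apart (log2 fold change -0.66, SE 0.29). miR-429 and miR-200c of the same family had -0.54 (SE 0.26) and -0.45 (SE 0.22), and miR-205, the most abundant of the list, -0.38 (SE 0.26). The other direction was taken by miR-141, also of the miR-200 family, at 0.40 (SE 0.34) and by miR-375 at 0.54 (SE 0.31). Without LD replicate 1 the values of miR-200b and miR-205 were -0.27 and -0.11, and without HD replicate 1 they were -0.38 and -0.13. miR-200b was DE without HD replicate 2 (-0.80), without LD replicate 3 (-0.84) and without size factors (-0.85).

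The most abundant miRNA, miR-143 of smooth muscle and stroma, had 58187, 112346 and 119361 normalized TPM in HD and 85897, 312815 and 149349 in LD. LD replicate 2 stood out and the other libraries overlapped (log2 fold change 0.72, SE 0.36). The value was 0.36 without LD replicate 2, and 1.08 and DE without LD replicate 3. miR-145, its partner in the cluster, had a mean of 7.48 TPM with a log2 fold change of -0.09 (SE 0.54). The 4 stromal members (miR-199a-5p, miR-199a-3p, miR-199b and miR-214) had values from -0.54 to -0.12 with none with p under 0.05. The 4 skeletal muscle members were between 0.26 and 1.21, none with p under 0.05, and led by miR-1 at 13.8 normalized TPM in HD replicate 3 and 35.6 in LD replicate 2. The 3 entries that may hold fragments of longer RNAs (miR-2904, miR-2478 and miR-2887) had log2 fold changes of 0.52, 0.21 and 0.21, and their summed share was 0.217 and 0.230% in HD replicate 1 and LD replicate 1 against 0.029 to 0.061% elsewhere.

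miR-148a, the leading miRNA of milk and of the secreting gland, had 15092, 17231 and 25333 normalized TPM in HD and 35840, 22004 and 32865 in LD. LD replicate 2 lay between the HD values, and the log2 fold change was 0.65 (SE 0.29, 95% interval -0.04 to 1.35). It was 0.13 without LD replicate 1, and it was DE without HD replicate 3 (0.95) and without LD replicate 2 (0.89). Its relatives miR-148b and miR-152 had -0.12 (SE 0.21) and 0.05 (SE 0.42). miR-10b, a HOX cluster miRNA, had 26115, 37513 and 53598 normalized TPM in HD and 21947, 78584 and 102448 in LD. Its order followed the days more than the groups. It decreased by 1.03 log2 units per 10 days further from calving (limma adjusted p = 0.0242), beside a log2 fold change of LD over HD of 0.48 (SE 0.20). Over all miRNAs 106 changed with the days at p under 0.05 and 24 after adjustment, compared with 31 and 0 for milk protein. The libraries furthest from calving, HD replicate 1 and LD replicate 1, were also the shallowest. They had the highest size factors and the largest shares of possible RNA fragments. Days and depth were thus not separated, and the part of depth in these changes was not tested.

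Among the other abundant miRNAs, miR-26a had 69561, 92535 and 122088 normalized TPM in HD and 50308, 139137 and 144892 in LD (log2 fold change 0.05, SE 0.19). miR-30a-5p reached 156851 in LD replicate 3 and was between 22938 and 65791 elsewhere (0.56, SE 0.36). The value was 0.16 without LD replicate 3, and it was DE without LD replicate 2 (0.97) and with days after dry-off as the covariate (1.13). miR-181a, miR-27b, let-7f and miR-22-3p had log2 fold changes of -0.23, 0.40, -0.27 and 0.12, none with p under 0.05.

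**Figure D4:**
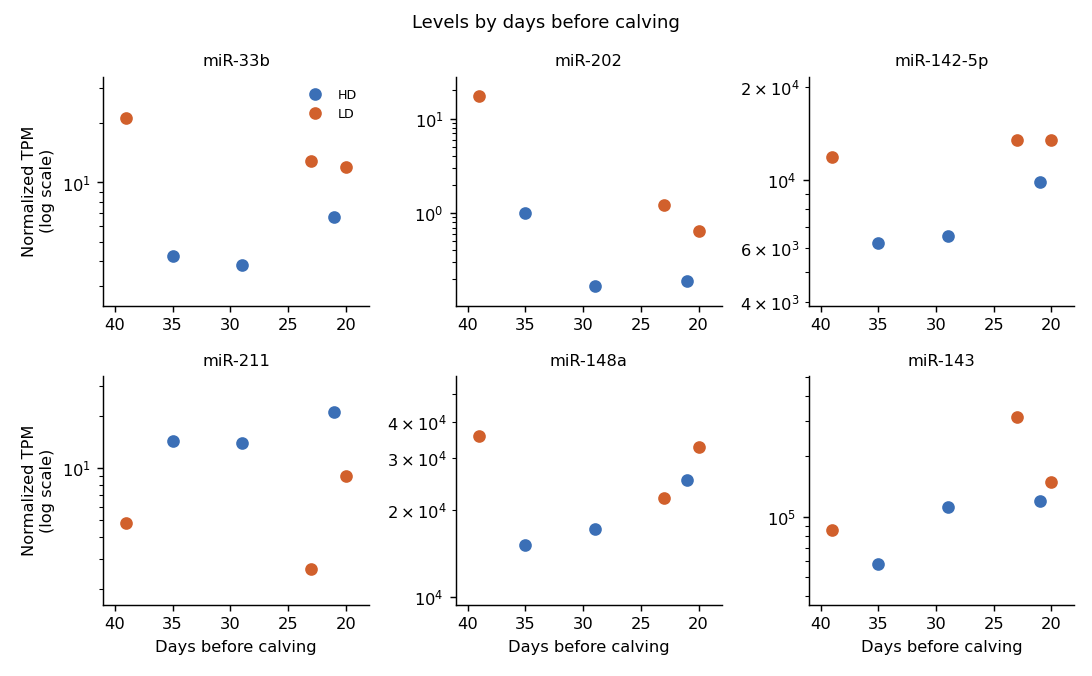
Normalized TPM (log scale) of 6 miRNAs against days before calving (axis reversed, calving to the right) in HD (blue) and LD (orange) cows, 1 point per library. miR-33b and miR-142-5p are higher and miR-211 is lower in every LD library, miR-202 is high in the LD cow at 39 days only, and miR-148a and miR-143 overlap between groups.

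Among the other families fewer members stood out. miR-29b and miR-29c, which repress collagens, had 71.2, 54.8 and 70.1 against 119, 146 and 80.9 normalized TPM (miR-29b, log2 fold change 0.79, SE 0.30) and a log2 fold change of 0.57 (miR-29c, SE 0.27). Both were higher in every LD library. miR-34b and miR-34c, targets of p53, had 0.67 (SE 0.28) and 0.61 (SE 0.28), miR-34b at a mean of only 2.35 TPM. All 4 measured members of the miR-29 list and all 4 of the miR-34 and miR-449 list were above 0, 1 of each with p under 0.05 (miR-29b and miR-34b), against 3.61% of all miRNAs higher at p under 0.05. miR-29b was DE without LD replicate 3 (1.03), and miR-34b without HD replicate 1 (0.88) or LD replicate 1 (0.95).

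The list of the miR-17-92 and miR-106b-25 clusters, which drive proliferation, also held their relatives miR-106a, miR-18b, miR-20b, miR-363 and miR-92b. Of its 15 members, 11 were below 0 with a median of -0.22 and 0 passed p under 0.05. The ranges of HD and LD were apart for 4 of the 15, against 40 of all 388 miRNAs (10.3%). These were miR-93, miR-17-5p, miR-92a and miR-17-3p, each lower in LD (log2 fold changes -0.38, -0.38, -0.30 and -0.38). The members of the miR-30 list were all above 0 (6 of 6, median 0.29), with the largest value for miR-30a-5p (0.56) and the smallest p for miR-30e-5p (0.38, SE 0.18). miR-30b-3p, which the list leaves out, had a log2 fold change of -0.12 at a mean of 7.79 TPM. The medians were 0.27 for miR-10 and miR-196, 0.18 for the miR-99, miR-100 and miR-125 families, 0.00 for miR-15, miR-16, miR-195 and miR-497, and 0.23 for the miR-23, miR-27 and miR-24 clusters, with 0 members of each at p under 0.05.

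The same contrast in lactating cows (LP over HP) was set beside these values in a fit of all 12 libraries. Of the 12 DE miRNAs, 9 had the same sign in both stages, where 219 of all 388 (56.4%) did, and 1 of them, miR-187, reached p under 0.05 in lactation. In lactation miR-187 was at only 0.689 (HP) and 0.164 (LP) normalized TPM, under the 1 added before log2. miR-211 had log2 fold changes of -0.61 (SE 0.34) in lactation and -1.52 when dry. Its levels were 1.25 (HP) and 0.467 (LP) normalized TPM in lactation against 15.6 (HD) and 5.32 (LD) when dry. At such low lactation levels the added 1 understates a change, so the 2 values are not on a like footing. let-7e had -0.55 (SE 0.28) and -0.77, and miR-126-5p 0.64 (SE 0.30) and 1.14. miR-33b had 0.14 (SE 0.47) in lactation at a higher level, with 63.3 ± 6.08 (HP) and 82.8 ± 52.3 (LP) normalized TPM (SD, n = 3), against 1.50 when dry, and the difference between the stages was 1.36 (limma adjusted p = 0.627).

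Across all miRNAs the difference between the stages reached p under 0.05 for 31 of 388 (7.99%) and for 1 of the 12 DE, miR-542-5p (difference -1.11, limma adjusted p = 0.579). None passed adjustment (0 miRNAs; smallest limma adjusted p = 0.252). The 3 smallest p-values were those of miR-2313-3p, miR-382 and miR-200b. miR-2313-3p was higher in HP, with 4.16 ± 1.79 normalized TPM, than in LP, with 0.718 ± 0.585, and close to the floor in HD and LD (0.101 ± 0.071 and 0.292 ± 0.399; SD, n = 3). miR-382 had 3.45 ± 1.32 in HP and 9.62 ± 3.14 in LP but 21.2 ± 3.89 in HD and 13.6 ± 2.73 in LD (SD, n = 3), so its sign changed between the stages. miR-200b likewise had 547 ± 113 in HP and 876 ± 20.7 in LP but 552 ± 139 in HD and 357 ± 75.4 in LD (SD, n = 3).

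miR-382 belongs to the DLK1-DIO3 region. Of its 38 members 7 had p under 0.05 for the difference between the stages, against 31 of all 388 (7.99%). Of these 7, 6 were higher in LP and lower in LD. In the fit of 12 libraries 24 members were higher in LP, against 201 of all 388 miRNAs. The median log2 fold change of LP over HP was 0.28 for the members and 0.02 for all. In the same fit 34 members were lower in LD, where the median of all miRNAs was 0.05.

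**Figure D5:**
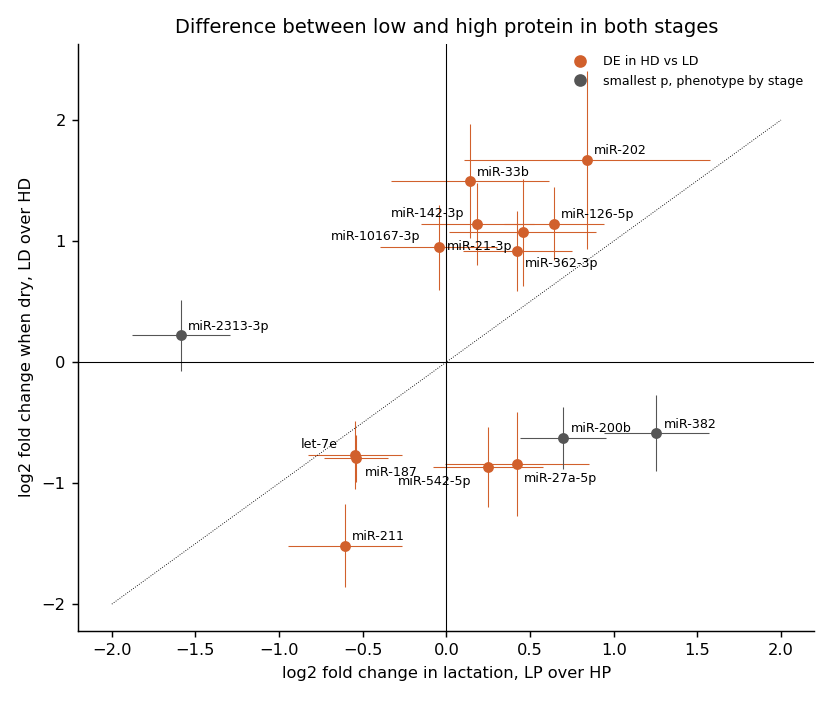
Log2 fold change of LD over HD (vertical) against LP over HP (horizontal) from the fit of 12 libraries, with standard errors, for the 12 DE miRNAs (orange) and the 3 with the smallest p for a difference between the stages (grey). The dotted diagonal marks equal values, and miR-382 and miR-200b lie at the lower right, higher in LP and lower in LD.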

How the data were processed

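Small RNA libraries of 18 to 30 nt were sequenced from mammary biopsies. The authors trimmed reads (Cutadapt 2.8, Trimmomatic 0.36), mapped them (Bowtie, ARS-UCD1.2, 1 mismatch), counted known miRNAs of miRBase 22.0 with the miRDeep2 quantifier, and deposited a table in RPM under the name TPM. The deposited TPM values are rounded, not corrected for length, and count a read at each precursor. Of the 388 miRNAs, 36 are listed with more than 1 precursor. The repeated entries took 25.0 to 25.5% of the library total in HD and 20.4 to 20.8% in LD, so the groups were apart. Size factors remove this part from the fits and the normalized sums. The summed shares of lists, in % of TPM, keep it in their total. The columns left unused were 0.

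For each mature miRNA the precursor entry with the highest mean was kept. Median-of-ratios size factors over the libraries of the fit scaled TPM, to which 1 was added before log2, which understates changes at a few TPM. limma 3.58.1 (R 4.3.3) was fitted over 6 libraries with group and days before calving (3 residual degrees of freedom), with a mean-variance trend, and over 12 libraries for phenotype by stage. P-values are two-sided. Directions follow the column names of the deposited table. Most miRNAs that the authors list for HD against LD have the opposite sign here. For example, the authors list miR-144, miR-146a and miR-486 as lower in LD, and miR-494, miR-495 and miR-665 as higher. A smaller part has the same sign, such as miR-2478 and miR-2887, which the authors list as higher in LD. Whether the columns or the authors' contrast is reversed was not tested. The libraries come from different cows, so their spread includes differences between animals. The script was tested on simulated data. The authors used DESeq2 on counts that were not analysed here.

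Depth was inferred from the value of 1 read, of which at least 99.8% of values in each library were whole multiples within 0.0051 TPM. The 3-read floor follows from it. With 3 libraries against 3 an exact permutation test cannot go below p = 0.1, so shares of lists are given as values without a test.

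Named were the DE miRNAs with and without the covariate, the 10 most abundant, up to 3 members with the smallest p in each list and its defining members, and the 3 smallest p of phenotype by stage. The comparison and the lists were chosen with earlier results of these data known. Other members of a list or cluster were named after their values were seen. Host genes and cluster neighbours (within 10 kb) were taken from RefSeq genes of ARS-UCD2.0, where 379 of 385 precursors matched by name, and the DLK1-DIO3 list is the run of miRNA genes around MIR379 with gaps of up to 150 kb. Alternatives were other covariates, scaling, pseudocounts (0.1 and 5), filters and leaving out each library. Plots were drawn with matplotlib 3.10.9 in Python 3.11.15. Sequences, RNA-seq and target predictions were not analysed here.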

Additional observations from a re-analysis of the deposited data

How the results depend on the processing

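With days after dry-off in place of days before calving 21 miRNAs were DE, and with 5 added before log2 7. The other alternatives gave between 8 (mean of at least 10 TPM) and 17 (no size factors). Leaving out each library in turn gave 10 to 23, of which only 2 of 14 without LD replicate 1 were shared with the 12. Over the 12 DE miRNAs and their alternatives, 153 of 199 pairs stayed DE in the same direction, 46 fell out and 0 turned. With Benjamini-Hochberg adjustment no alternative gave a call for HD vs LD (smallest limma adjusted p from 0.0999 to 0.935). The cause was not tested for any of these. For phenotype by stage the count at p under 0.05 was 20 without the covariate, 16 at a mean of at least 10 TPM, and 19 to 51 when single libraries were left out, against 31. Without HD replicate 2, 1 miRNA passed the adjustment (limma adjusted p = 0.0447). Replicate numbers from the labels do not pair cows. Deviations from the group means correlated at 0.545, -0.114 and 0.503 for numbers 1, 2 and 3, and the replicate block gave 17 DE miRNAs and 0 after adjustment, and 22 for phenotype by stage. miR-26a and miR-22-3p turned sign without size factors (-0.14 and -0.064), without HD replicate 3 (-0.057 and -0.014) and without LD replicate 2 (-0.028 and -0.15), and over single libraries left out ranged from -0.057 to 0.26 and from -0.15 to 0.37. On the size-factor scale the log2 ratio of LD to HD of the summed shares turned sign for the lists led by miR-99 (-0.18 to 0.17), miR-15 (-0.17 to 0.12) and miR-29 (-0.020 to 0.21) and for the possible RNA fragments (-0.025 to 0.026). It went from 0.21 to 0.53 for miR-23, from 0.40 to 0.77 for miR-10 and miR-196, and from -0.49 to -0.28 for let-7. For epithelial miRNAs it went from -0.29 to -0.022, for stromal from -0.38 to -0.16 and for DLK1-DIO3 from -0.27 to -0.13. The count tests edgeR and DESeq2 on recovered reads were not run, since the 6 libraries hold too few low values for the check of recovered reads. The fit had 3 residual degrees of freedom, and 4 DE miRNAs had a mean under 10 normalized TPM, and the part of depth and sample number in the calls was not tested.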

Other observations

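Beyond the DE miRNAs and the lists, 6 other miRNAs had an unadjusted limma p under 0.05 and were named after their values were seen. miR-192 had a log2 fold change of 0.55 (SE 0.19) and miR-101 of 0.62 (SE 0.23), while miR-7857-3p had 0.37 (SE 0.15) at a mean of 0.503 TPM. Lower in LD were miR-31 (-0.58, SE 0.23), which had 1790, 1339 and 1424 normalized TPM in HD and 834, 1006 and 1249 in LD without overlap, miR-181b (-0.46, SE 0.19) and miR-181d (-0.60, SE 0.25). Without LD replicate 1 miR-31 was at -0.29 and miR-181d at -0.33, and miR-101 was DE (0.86). miR-181d was DE without HD replicate 3 (-0.80), miR-192 with days after dry-off as the covariate (0.92) and miR-7857-3p with 0.1 added before log2 (1.05). miR-192 was at 787, 1042 and 1576 normalized TPM in HD and 836, 2014 and 2864 in LD, and changed with the days (-0.83 log2 units per 10 days further from calving). Its cluster partner miR-194 had -0.10 (SE 0.24).

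The balance of both arms of a precursor was compared between HD and LD after the data were seen, as the difference of their log2 levels in limma with days before calving. Of 37 pairs, 4 had p under 0.05 and 0 passed Benjamini-Hochberg adjustment (smallest adjusted p = 0.200), and both arms had the same sign in 22. The 5p arm of miR-27a fell short of its 3p arm in LD by 1.22 log2 units (difference -1.22, SE 0.37), with 15.4 TPM on average for miR-27a-5p and 2684 for miR-27a-3p. For miR-126 the 5p arm gained 0.81 on the 3p arm (SE 0.37). miR-2299 (0.87, SE 0.29) and let-7a (-1.22, SE 0.54) were the others.

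The spread among replicates was larger in LD. The median SD of log2(normalized TPM + 1) was 0.42 in LD and 0.33 in HD, and it was larger in LD for 248 of the 388 miRNAs. The LD cows also spanned more days, from 20 to 39 before calving against 21 to 35 in HD. These were not tested against each other.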
